A study of Mus musculus with 59 samples.

Results

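The 35 genes described here carry out protein folding in the endoplasmic reticulum (ER) and the unfolded protein response that adjusts it. They were chosen by symbol: every probe set of the array whose annotation gave exactly 1 gene symbol, that symbol being on the list, was taken, which gave 89 probe sets of 45101 and 35 genes of 18193. The arrays measured RNA from the liver, bone marrow and spleen of B6C3F1 mice, a hybrid of inbred laboratory strains. The mice received baclofen, an agonist of the GABA-B receptor, or its vehicle, 0.5% methylcellulose, as 1 dose or as 5 daily doses, and tissues were collected 2 hours after the last dose. Marrow came from the right humerus, liver from part of the left lateral lobe and spleen from part of a cross-section; the dose, age and sex are not given in the labels used here. Livers comprised 3 vehicle and 4 baclofen samples at 1 day and 4 and 8 at 5 days. Marrow and spleen each comprised 4 vehicle and 4 baclofen samples at 1 day and 4 and 8 at 5 days, so that 59 arrays fell into 12 groups. Replicates are numbered, but nothing states that every one is its own mouse, so p-values measure the spread between these samples.

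As background, unfolded protein in the ER is sensed by 3 membrane proteins: IRE1, encoded by Ern1, which splices the Xbp1 transcript; PERK, encoded by Eif2ak3, which slows translation and raises ATF4; and ATF6, which is cut to release a transcription factor. Their targets include chaperones, disulphide isomerases, the translocon that takes new proteins into the ER, and the machinery that exports misfolded proteins for degradation. Hepatocytes and plasma cells, which secrete large amounts of protein, are known for high levels of these genes. Splicing, phosphorylation and cleavage were not measured here; the arrays report total transcript.

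Depth cannot be stated for arrays, where the number of arrays limits the precision. Median intensity was 34.7 to 36.8 in liver, 72.6 to 76.1 in marrow and 74.3 to 77.6 in spleen, so levels are not compared between tissues, nor between probe sets. Each gene is given by its brightest probe set in the tissue, or over all arrays for tests between tissues. The 10916 brightest of 18193 genes were tested in each tissue. All 35 genes passed this filter in liver, 34 in marrow, where Trib3 was below it, and 33 in spleen, where Chac1 and Trib3 were below it. In these bulk tissues, fewer cells of a type and less RNA per cell cannot be told apart. For 5 of the 7 livers taken at 1 day, the source field names the other treatment than the title and treatment fields, which were followed here; this touches every value for liver at 1 day. In 4 libraries, transcripts of another tissue stood out: the spleens of vehicle 5-day replicates 1 and 3 and of baclofen 5-day replicate 5 had mean hepatocyte marker levels of 7.02, 9.56 and 9.32 (log2), against 4.77 to 5.95 in the other 17 spleens, and the marrow of baclofen 1-day replicate 3 had a mean skeletal muscle marker level of 10.1, against 6.63 to 8.09 in the other marrows. Hepatocyte markers were high in all 19 livers, at a mean of 14.3 to 14.5, and markers of granulocyte precursors and red cell precursors were high in all 20 marrows.

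Short promoter motifs through which the branches are known to act were searched, and matches are shown as the sequence context of the genes described; 15 genes held none of them. In the RefSeq promoters of GRCm38.p6, from 250 bases before to 50 bases after each annotated start, 29 of the 35 genes had a sequence. The ER stress element, CCAAT and CCACG with 9 bases between them on either strand, was found in 9 of these 29 genes (Calr, Canx, Creld2, Derl3, Dnajc3, Hsp90b1, Hspa5, Pdia6 and Syvn1) and in 0.119% of all 32851 promoters. Examples in the motif's own orientation follow, with its fixed letters in capitals; those of Calr and Creld2 lie on the strand opposite to the gene.
Hspa5, chr2:34772025-34772043: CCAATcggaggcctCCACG
Calr, chr8:84847075-84847093: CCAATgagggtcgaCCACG
Pdia6, chr12:17266491-17266509: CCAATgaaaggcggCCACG
Creld2, chr15:88819520-88819538: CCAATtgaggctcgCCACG
Syvn1, chr19:6046532-6046550: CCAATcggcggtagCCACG

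Herpud1 held a different pair. Its promoter had the second ER stress element, ATTGG and CCACG with 1 base between them, which was in 0.037% of all promoters and in 2 of the 29 genes (the match in Dnajb11 lies after the start). It also had the CARE motif TGATGNAA, bound by ATF4 and CHOP dimers, which was in 3.97% of all promoters and in 4 of the 29 genes: Asns, Chac1, Herpud1 and, after the start, Trib3. The XBP1 motif TGACGTGG, searched on both strands as the others were, was in none of the 29 and in 0.676% of all promoters. The stretch of Herpud1 from 132 to 22 bases before its start (chr8:94386297-94386407, plus strand) follows, with the CARE match (on the opposite strand, so reading TTgCATCA here) and then the second ER stress element in capitals.
Herpud1: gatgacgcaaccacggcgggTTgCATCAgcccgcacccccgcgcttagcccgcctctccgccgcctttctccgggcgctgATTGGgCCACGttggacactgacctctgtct
A match is a stretch of letters and not evidence of binding, and no factor was measured at these promoters.

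Over the 6 comparisons of baclofen with vehicle, 25 changes in the 35 genes passed the threshold of an adjusted p under 0.05 in limma's moderated test, of which 6 were higher and 19 lower with baclofen. They fell on 18 genes, and 17 genes passed in no comparison. After 1 dose, 1 of 35 genes was higher and 1 lower in liver, where 2.67% of all genes tested were called, 1.58% higher and 1.09% lower. In marrow at 1 day 1 of 34 was higher and 0 lower, against 7.36% of all genes called, 3.11% higher and 4.25% lower. In spleen at 1 day 1 of 33 was higher and 0 lower, against 15.5% called, 7.64% higher and 7.91% lower. After 5 doses, 2 genes were higher and 8 lower of 35 in liver, where 10.6% of all genes were called, 4.86% higher and 5.75% lower. Marrow at 5 days had 1 higher and 8 lower of 34, against 10.1% called, 6.15% higher and 3.93% lower. Spleen at 5 days had 0 higher and 2 lower of 33, against 4.43% called, 3.05% higher and 1.38% lower. The counts of lower genes in liver and marrow at 5 days were thus above the share among all genes, while the other 4 comparisons rested on 1 or 2 genes each.

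**Figure D1:**
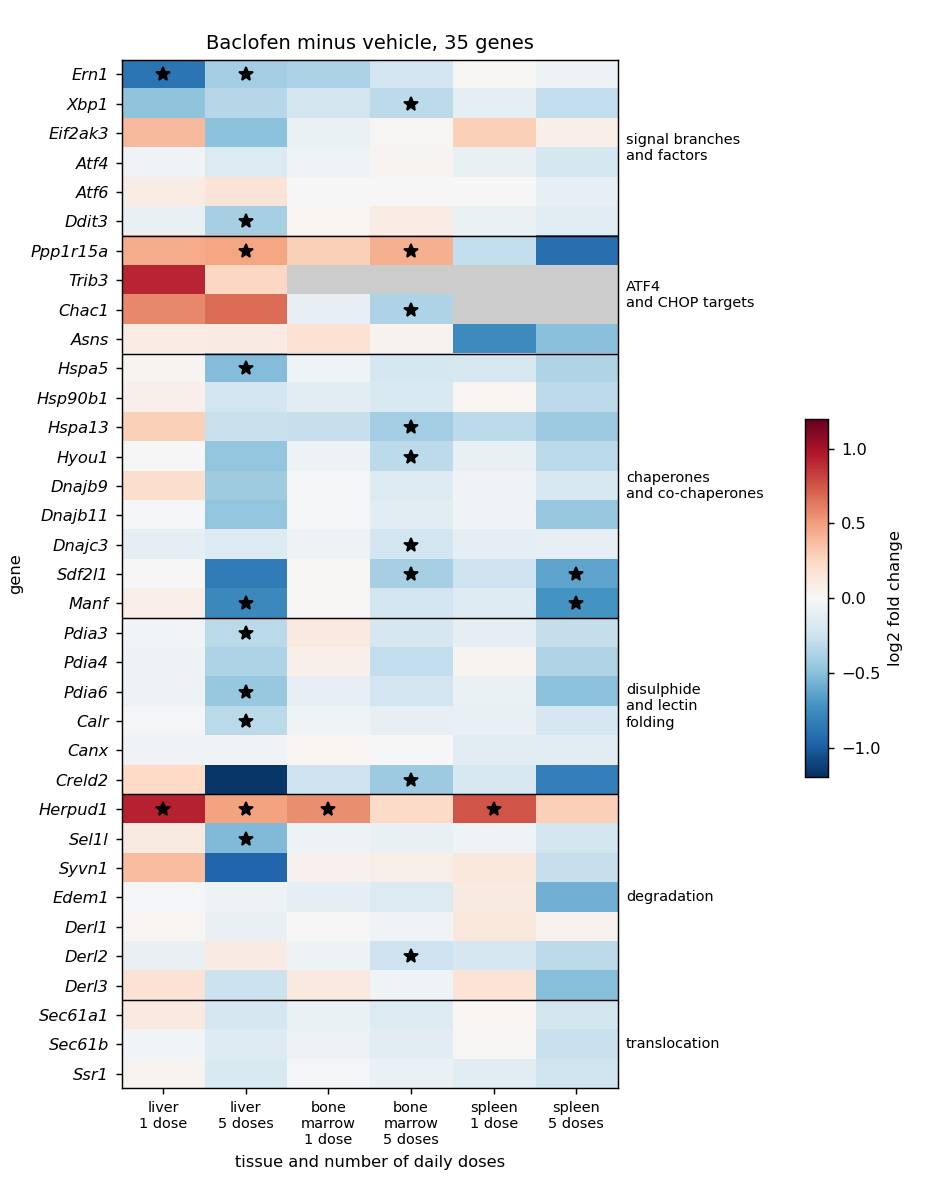
Log2 change with baclofen against vehicle for the 35 genes (down the side, by role) in 3 tissues at 1 and 5 days (across), with red higher, blue lower, grey below the brightness filter and a star where adjusted p was under 0.05. Herpud1 carries 4 stars, all higher, and most cells of the chaperone and disulphide isomerase genes are blue at 5 days.

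Herpud1, which encodes an ER membrane protein of the degradation machinery and lies on chromosome 8 from 94386429 to 94395371, was the gene called in most comparisons. In liver at 1 day its log2 intensity was 12.41, 12.54 and 13.17 in the 3 vehicle samples and 13.87, 13.60, 13.47 and 13.58 in the 4 baclofen samples. Every baclofen liver was above every vehicle liver, a 1.90-fold rise (log2 0.92 ± 0.16 SE, adjusted p = 0.00279, limma).

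In marrow at 1 day Herpud1 was 10, 10.37, 10.29 and 10.39 with vehicle and 11.01, 10.91, 10.36 and 10.98 with baclofen. The groups overlapped only through baclofen replicate 3, the marrow with high muscle transcripts, and Herpud1 rose 1.47-fold (log2 0.55 ± 0.15, adjusted p = 0.0304, limma). In spleen at 1 day it was 9.87, 10.24, 10.61 and 10.34 with vehicle and 11.13, 11.04, 10.73 and 11.19 with baclofen. The spleen groups did not overlap and Herpud1 rose 1.69-fold (log2 0.76 ± 0.19, adjusted p = 0.0109, limma). These 3 rises at 1 day were measured in separate tissues, each with its own vehicle group. The labels do not state whether the tissues came from different mice, so the 3 rises may not be independent. Cell markers also varied in the 1-day spleens. Mean neutrophil marker levels were 9.40 to 11.09 (log2) with vehicle and 9.21 to 9.52 with baclofen. Those of red cell precursors were 9.75 to 11.88 and 10.15 to 10.75. Among vehicle spleens Herpud1 was lower where red cell precursor markers were higher, an order the baclofen spleens did not follow. The part of these cells in the spleen rise was not tested.

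After 5 doses Herpud1 in liver was 12.64, 13.00, 12.54 and 13.04 with vehicle, and with baclofen its lowest, median and highest values were 13.11, 13.27 and 13.63. All 8 baclofen livers exceeded all 4 vehicle livers, a rise (log2 0.48 ± 0.13, adjusted p = 0.0223, limma), which missed the threshold without vehicle replicate 1 (adjusted p = 0.0693) or without vehicle replicate 3 (adjusted p = 0.108). In marrow and spleen at 5 days the log2 differences were 0.23 and 0.29 and did not pass. In the spleen, vehicle replicate 1 had the highest value, 11.21, against 10.05 to 10.46 in the other 3 vehicle samples; without it the difference was 0.51 (adjusted p = 0.0508, limma). A second Herpud1 probe set gave differences of 1.04 and 0.58 in liver, 0.60 and 0.30 in marrow and 0.67 and 0.23 in spleen, at 1 and 5 days, each of the same sign as the first.

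**Figure D2:**
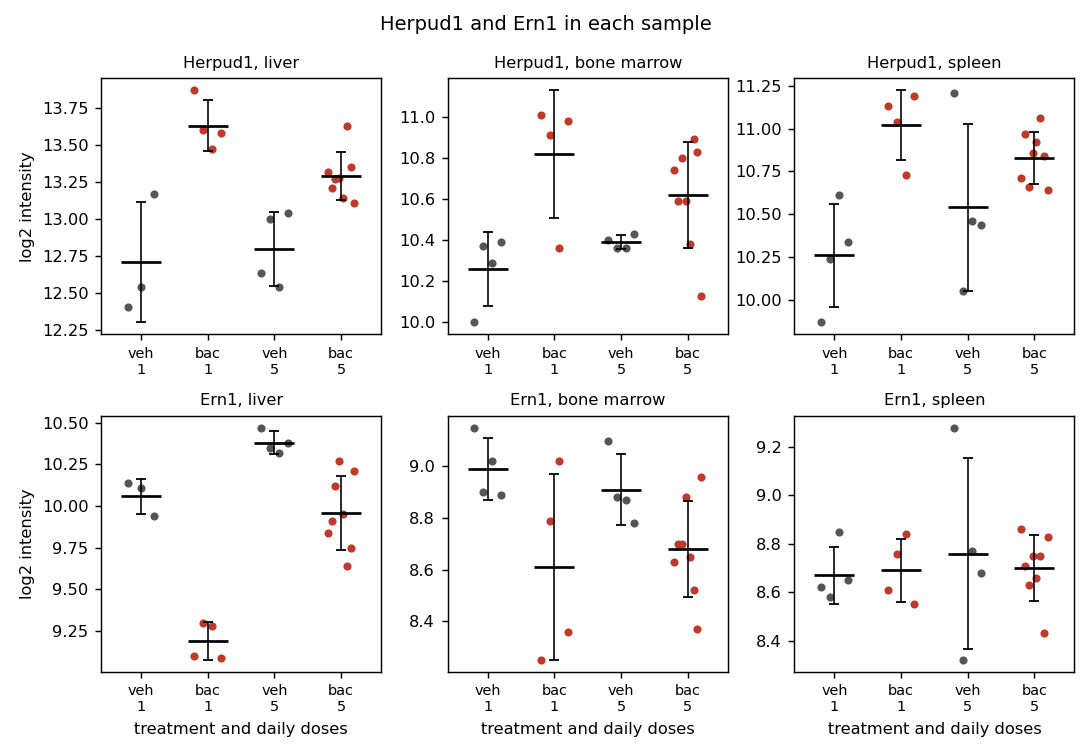
Log2 intensity of Herpud1 and Ern1 in each sample (dots) of the vehicle and baclofen groups at 1 and 5 days in the 3 tissues, with bars for the mean ± SD of each group. In liver at 1 day the groups are apart for both genes, with Herpud1 higher and Ern1 lower with baclofen.

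Among the signal branches and their factors (Ern1, Xbp1, Eif2ak3, Atf6, Atf4 and Ddit3), Ern1 changed in liver at both times. Ern1 encodes the sensor IRE1 and lies on chromosome 11 from 106397620 to 106487796. At 1 day it was 10.14, 10.11 and 9.94 with vehicle and 9.10, 9.30, 9.28 and 9.09 with baclofen. The groups did not overlap, and Ern1 was 1.83-fold lower (log2 -0.87 ± 0.12, adjusted p = 0.000358, limma). At 5 days Ern1 was 10.47, 10.35, 10.32 and 10.38 with vehicle, and 9.64, 9.93 and 10.27 as the lowest, median and highest with baclofen. All 8 baclofen livers were again below all 4 vehicle livers, by 1.34-fold (log2 -0.42 ± 0.10, adjusted p = 0.0113, limma).

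Ern1 in marrow at 1 day was 9.15, 8.90, 9.02 and 8.89 with vehicle and 8.25, 8.79, 9.02 and 8.36 with baclofen, a difference of -0.38 that did not pass (adjusted p = 0.101, limma) but did without baclofen replicate 3 (-0.52). Spleen values overlapped at both times. Of the other Ern1 probe sets above the filter in liver, both were lower with baclofen at 1 day (-0.89 and -0.30), and in marrow at 1 day both were near 0 (-0.05 and 0.07), so the marrow value rested on 1 probe set.

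Xbp1, the transcription factor spliced by IRE1, fell in marrow at 5 days. It was 12.14, 12.17, 12.14 and 11.91 with vehicle, and 11.60, 11.78 and 11.87 as the lowest, median and highest with baclofen. No baclofen marrow reached the lowest vehicle marrow, and the difference was 1.25-fold (log2 -0.32 ± 0.07, adjusted p = 0.00888, limma). In liver Xbp1 differed by -0.49 at 1 day (adjusted p = 0.22) and -0.35 at 5 days (adjusted p = 0.141), neither of which passed in limma's test, and its 3 further probe sets were below 0 in all 6 comparisons.

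Ddit3, which encodes the transcription factor CHOP, fell in liver at 5 days. It was 7.77, 7.34, 7.64 and 7.50 with vehicle and 6.96, 7.14 and 7.45 as the lowest, median and highest with baclofen; 6 of 8 baclofen livers were below every vehicle liver (log2 -0.39 ± 0.11, adjusted p = 0.029, limma). Without vehicle replicate 1 or replicate 3 it did not pass (adjusted p = 0.095 and 0.0975). Atf6 and Atf4, the transcription factors of the other branches, and Eif2ak3, the kinase PERK, passed in no comparison with vehicle. Atf6 differed in liver at 5 days by 0.16, Atf4 by -0.17 and Eif2ak3 by -0.49 (adjusted p = 0.389, 0.269 and 0.106, limma).

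The 4 genes known as targets of ATF4 and CHOP (Ppp1r15a, Chac1, Trib3 and Asns) were all above 0 in liver at both times, with a median log2 difference of 0.51 at 1 day and 0.36 at 5 days. A wider list of the integrated stress response, taken up with the further genes below, did not share this. Its 25 genes tested in liver had medians of 0.040 at 1 day and -0.046 at 5 days, with 11 and 14 below 0. At 5 days 1 of them was called higher and 3 lower. Ppp1r15a, whose product GADD34 restores translation by directing removal of phosphate from eIF2 alpha, was called at 5 days only, and its change between the times was not called. In liver at 5 days it was 7.60, 7.74, 7.73 and 7.94 with vehicle, and 8.05, 8.24 and 8.47 as the lowest, median and highest with baclofen. The groups did not overlap, and Ppp1r15a rose 1.39-fold (log2 0.47 ± 0.10, adjusted p = 0.00575, limma). At 1 day it was 7.91, 7.51 and 7.61 with vehicle and 8.29, 7.97, 7.89 and 8.35 with baclofen, which did not pass (0.45 ± 0.12, adjusted p = 0.0584).

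Ppp1r15a also rose in marrow at 5 days, from 10.48, 10.99, 10.89 and 11.11 with vehicle to a lowest, median and highest of 11.09, 11.31 and 11.47 with baclofen. In 7 of 8 baclofen marrows it exceeded every vehicle marrow (log2 0.43 ± 0.11, adjusted p = 0.0195, limma). In spleen at 5 days it went the other way without passing (-0.91, adjusted p = 0.125), with 8.99, 11.06, 9.64 and 10.37 with vehicle and 8.64, 9 and 10.26 as the lowest, median and highest with baclofen. The spleen highest in Ppp1r15a within each of the 4 groups was also its highest in red cell precursor markers: vehicle 1-day replicate 1 at 11.9, baclofen 1-day replicate 2 at 10.7, vehicle 5-day replicate 2 at 11.8 and baclofen 5-day replicate 7 at 11.0 (mean log2), and the part of those cells in the result was not tested.

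Chac1, an enzyme that degrades glutathione, differed in sign between tissues. In liver at 5 days it was 6.67, 7.22, 8.08 and 7.95 with vehicle and 7.75, 8.11 and 8.54 as the lowest, median and highest with baclofen, a difference of 0.67 ± 0.23 that missed the threshold (adjusted p = 0.0625, limma). In marrow at 5 days it was 7.98, 7.70, 7.78 and 7.71 with vehicle and 7.06, 7.46 and 7.66 with baclofen in the same order. The marrow groups did not overlap and Chac1 fell by 0.37 ± 0.11 on the log2 scale (adjusted p = 0.0441, limma). Trib3, a pseudokinase induced by CHOP, was 6.58, 6.58 and 7.65 in vehicle livers at 1 day and 7.76, 8.16, 7.85 and 7.62 with baclofen (0.92 ± 0.33, adjusted p = 0.195). Asns, asparagine synthetase, differed by 0.09 in liver at 1 day and by 0.10 at 5 days (adjusted p = 0.975 and 0.887). In spleen Asns was -0.76 and -0.50 (adjusted p = 0.249 and 0.416), with its further probe set at -0.83 and -0.61, so that both targets tested in spleen, Asns and Ppp1r15a, were below 0 at both times without passing.

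The 9 chaperones and co-chaperones (Hspa5, Hsp90b1, Hyou1, Hspa13, Dnajb9, Dnajb11, Dnajc3, Sdf2l1 and Manf) were all below 0 in each of the 3 tissues at 5 days, with median log2 differences of -0.47 in liver, -0.23 in marrow and -0.36 in spleen; 2, 4 and 2 of them passed. The spleen value rested on vehicle replicate 1, a library described with the spleen results: without it the median of the 9 was -0.12 with 7 below 0, and without all 4 libraries with transcripts of another tissue it was -0.091 with 6 below 0. At 1 day none of them passed limma's test, with 0, 1 and 0 at an unadjusted p under 0.05 in liver, marrow and spleen. The medians over all genes tested at 5 days were -0.016 in liver, -0.0020 in marrow and -0.0037 in spleen.

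Hspa5 encodes BiP, the main ER chaperone, which holds the sensors inactive, and lies on chromosome 2 from 34772090 to 34776529. In liver at 5 days it was 13.42, 13.91, 13.75 and 13.20 with vehicle, and 12.75, 13.05 and 13.39 as the lowest, median and highest with baclofen. It was 1.43-fold lower (log2 -0.52 ± 0.16, adjusted p = 0.0419, limma), with 5 of 8 baclofen livers below every vehicle liver. This call was lost in 6 of 9 other settings and in 8 of 19 arrays left out, where Hspa5 remained below 0. At 1 day the Hspa5 difference in liver was 0.03, and in marrow and spleen at 5 days it was -0.21 and -0.36 without passing (adjusted p = 0.0738 and 0.0608).

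Manf, a secreted ER factor induced by stress, was the other chaperone that fell in liver at 5 days. It was 12.10, 12.87, 12.45 and 11.73 with vehicle and 11.15, 11.45 and 12.08 with baclofen as lowest, median and highest, or 1.71-fold lower (log2 -0.77 ± 0.23, adjusted p = 0.0341, limma). In 6 of 8 baclofen livers Manf was below every vehicle liver. The Manf call was lost in 3 of 9 other settings and in 6 of 19 arrays left out. Sdf2l1, a BiP cofactor, differed by -0.84 in liver at 5 days without passing (adjusted p = 0.0821), its vehicle values spreading from 8.36 to 10.18.

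In marrow at 5 days the chaperones that fell were Hspa13, Dnajc3, Hyou1 and Sdf2l1. Hspa13, an ER-associated relative of BiP, was 9.17, 8.96, 8.95 and 8.84 with vehicle and 8.34, 8.62 and 8.70 as the lowest, median and highest with baclofen. These did not overlap (log2 -0.41 ± 0.08, adjusted p = 0.00519, limma). Dnajc3, the co-chaperone p58IPK, was 10.45, 10.45, 10.37 and 10.26 with vehicle and 10.03, 10.19 and 10.23 with baclofen, again without overlap (-0.23 ± 0.06, adjusted p = 0.0193). Hyou1, a large chaperone that works with BiP, was 9.87, 10.32, 10.18 and 9.91 against 9.57, 9.76 and 9.93 (-0.31 ± 0.08, adjusted p = 0.0246). Sdf2l1 was 9.99, 10.44, 10.34 and 9.66 with vehicle and 9.51, 9.68 and 10.06 with baclofen (-0.40 ± 0.12, adjusted p = 0.0478), where 4 of 8 baclofen marrows were below every vehicle marrow.

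The other chaperones passed in no comparison. Hsp90b1, the ER member of the HSP90 family, differed in liver at 5 days by -0.23; Dnajb9, a BiP co-chaperone that restrains IRE1, by -0.42; and Dnajb11, a BiP co-chaperone, by -0.48 (adjusted p = 0.159, 0.255 and 0.0545, limma).

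The 6 genes of disulphide and lectin folding (Pdia3, Pdia4, Pdia6, Calr, Canx and Creld2) were below 0 in all 3 tissues at 5 days, with medians of -0.35 in liver, -0.21 in marrow and -0.32 in spleen; 3, 1 and 0 passed in limma's test, with 5 at an unadjusted p under 0.05 in spleen. Without vehicle replicate 1 the spleen median was -0.11, and without all 4 libraries with transcripts of another tissue -0.052, with 5 of 6 below 0 in each. Calr encodes calreticulin, the calcium-binding lectin chaperone. In liver at 5 days it was 13.49, 13.71, 13.61 and 13.27 with vehicle and 12.95, 13.20 and 13.43 as lowest, median and highest with baclofen, with 7 of 8 baclofen livers below every vehicle liver (log2 -0.33 ± 0.08, adjusted p = 0.0145, limma).

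Pdia6, a disulphide isomerase that also attenuates IRE1 signalling, was 11.18, 11.75, 11.53 and 11.07 in vehicle livers at 5 days and 10.77, 10.86 and 11.34 with baclofen (-0.46 ± 0.12, adjusted p = 0.0193, limma). Pdia3, the isomerase that works with calreticulin and calnexin, was 12.50, 12.82, 12.69 and 12.31 with vehicle and 12.08, 12.23 and 12.67 with baclofen (-0.32 ± 0.10, adjusted p = 0.0418). For both genes 7 of 8 baclofen livers were below every vehicle liver, and the exception was baclofen replicate 7. The Pdia3 call was lost in 6 of 9 other settings and in 11 of 19 arrays left out, and that of Pdia6 in 3 and 2. Canx, the membrane lectin calnexin, differed by -0.04 and Pdia4, a further isomerase, by -0.37 (adjusted p = 0.607 and 0.112).

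Creld2, an ER stress-induced gene for a secreted protein with disulphide isomerase motifs, had the lowest log2 difference of the 35 genes in liver at 5 days, and it did not pass: -1.17 ± 0.42 (adjusted p = 0.0828, limma). Its vehicle values were 10.34, 11.87, 11.26 and 9.78 and those with baclofen were 8.88, 9.45 and 10.88 as lowest, median and highest, so both groups spread widely and overlapped. In marrow at 5 days Creld2 was 9.04, 9.59, 9.38 and 8.72 with vehicle and 8.55, 8.71 and 9.01 with baclofen (-0.44 ± 0.13, adjusted p = 0.045, limma).

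**Figure D3:**
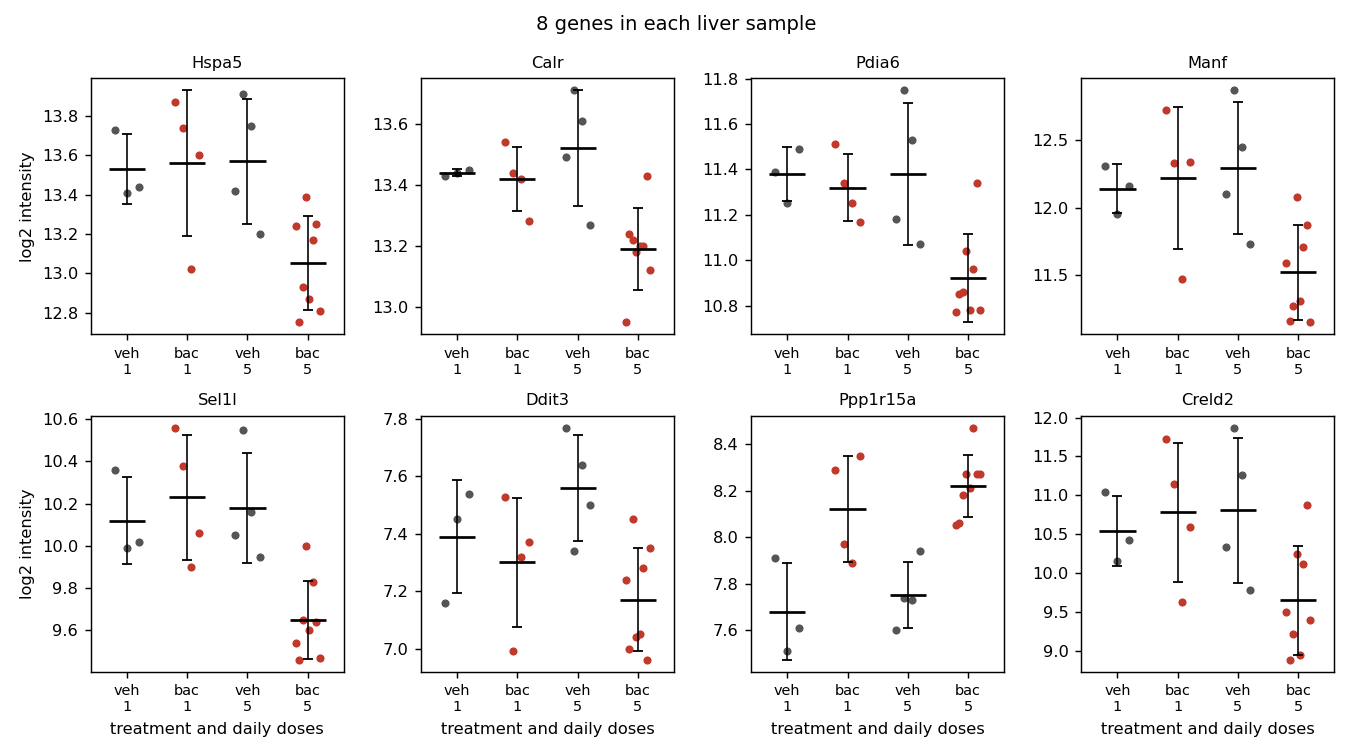
Log2 intensity of Hspa5, Calr, Pdia6, Manf, Sel1l, Ddit3, Ppp1r15a and Creld2 in each liver (dots), by treatment and day, with bars for the mean ± SD. At 5 days Ppp1r15a is higher in all 8 baclofen livers than in the 4 vehicle livers, and the 6 genes that fell are lower in 5 to 7 of 8 baclofen livers than in any vehicle liver.

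Of the degradation genes other than Herpud1 (Edem1, Derl1, Derl2, Derl3, Sel1l and Syvn1), Sel1l changed in liver and Derl2 in marrow. Sel1l, the scaffold of the HRD1 ubiquitin ligase, was 10.05, 10.55, 10.16 and 9.95 with vehicle in liver at 5 days and 9.46, 9.62 and 10 with baclofen as lowest, median and highest. It was 1.44-fold lower (log2 -0.53 ± 0.13, adjusted p = 0.0148, limma), in 7 of 8 baclofen livers below every vehicle liver. Syvn1, which encodes HRD1 itself, was 10.93, 11.57, 10.99 and 10.16 with vehicle and 9.62, 9.90 and 10.61 with baclofen (-0.95 ± 0.31), and just missed the threshold (adjusted p = 0.0596).

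Derl2, a derlin channel component, fell by 0.24 ± 0.06 in marrow at 5 days (adjusted p = 0.0186, limma), from 10.10, 10.16, 9.98 and 9.84 with vehicle to 9.68, 9.78 and 9.85 with baclofen as lowest, median and highest. Its further probe set had the opposite sign in marrow, so the direction depends on the probe set. Derl1, another derlin, did not pass by its brightest probe set in liver at 5 days (-0.09, adjusted p = 0.495). Its 3 dimmer probe sets were lower there, at -0.17, -0.36 and -0.56. With each probe set tested apart, those at -0.36 and -0.56 had an adjusted p of 0.0116 and 0.00839 (limma). Derl3 and Edem1, a derlin and a mannosidase-like protein, passed in no comparison. The translocation genes passed in none either: Sec61a1 and Sec61b, subunits of the translocon, and Ssr1, a subunit of the complex beside it, differed in liver at 5 days by -0.20, -0.15 and -0.18 (adjusted p = 0.151, 0.321 and 0.295).

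In spleen at 5 days, the 2 genes that fell were Manf and Sdf2l1. Manf was 12.20, 10.56, 10.82 and 10.58 with vehicle and 10.06, 10.31 and 10.50 as lowest, median and highest with baclofen (log2 -0.72 ± 0.20, adjusted p = 0.0484, limma). Sdf2l1 was 10.21, 8.85, 9.02 and 8.94 with vehicle and 8.49, 8.58 and 8.90 with baclofen (-0.63 ± 0.17, adjusted p = 0.0429). In both genes vehicle replicate 1 stood far above the other 3 vehicle spleens.

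That library was the highest of all 20 spleens in 28 of the 33 genes tested, and the mean deviation of its genes from the tissue mean was 0.84, against -0.18 to 0.08 in the other 19. Against the mean of the other 3 vehicle spleens, Creld2 was 5.14-fold, Derl3 4.75-fold, Edem1 4.17-fold, Pdia4 3.05-fold and Manf 2.92-fold higher in it. The mean level of 7 plasma cell markers was 10.8 in it, against 8.83 to 9.25 in the other 19 spleens, and their part in the result was not tested. Without this library, the median difference of the 33 genes at 5 days went from -0.28 to -0.08, with 22 rather than 30 below 0; Manf was -0.33 and passed (adjusted p = 0.0381), and Sdf2l1 was -0.31 and did not (adjusted p = 0.0595, limma). Without all 4 libraries with transcripts of another tissue, the median was -0.03 with 18 of 33 below 0 and none passed in limma's test (7 at an unadjusted p under 0.05), with Manf at -0.24 and Sdf2l1 at -0.27 (adjusted p = 0.153 and 0.159). The count of 2 genes also moved with other arrays: leaving out vehicle 5-day replicate 4 gave 6, leaving out baclofen 1-day replicate 1 or 3 or the third vehicle spleen at 5 days gave 1, and 0 were called without vehicle 1-day replicate 2 or 4, baclofen 1-day replicate 2 or 4, or any of baclofen 5-day replicates 1 to 6, with 14 to 18 genes at an unadjusted p under 0.05 in limma's test. At 1 day the spleen count of 1 became 3 when vehicle 1-day replicate 3 was left out, and 2 on removal of the 5-day vehicle library that stood apart, which enters through the shared estimate of the spread.

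**Figure D4:**
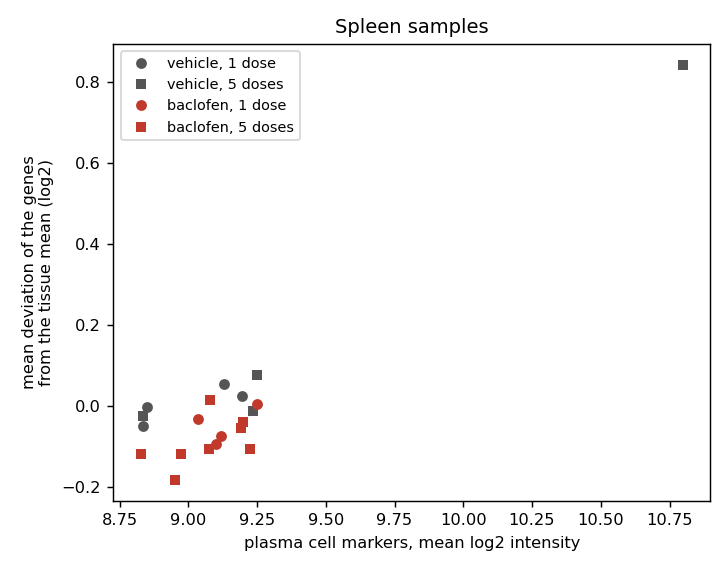
Mean log2 level of the plasma cell markers (across) against the mean log2 deviation of the 33 genes from their spleen means (up) in 20 spleens, by group. Vehicle 5-day replicate 1 sits alone at 10.8 and 0.84, while the other 19 lie between 8.83 and 9.25 and between -0.18 and 0.08.

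Set over all genes of the list, the median log2 difference in liver went from 0.03 at 1 day to -0.27 at 5 days, with 16 and 28 of 35 below 0, against medians of -0.0084 and -0.016 for all genes tested. In marrow it was -0.05 and -0.16, with 22 and 27 of 34 below 0, and all genes had 0.00075 and -0.0020. In spleen it was -0.08 and -0.28, where all genes had -0.025 and -0.0037. Whether the baclofen difference at 5 days was unlike that at 1 day was itself tested and passed for none of these genes in limma's test: 10 of 35 in liver, 3 of 34 in marrow and 0 of 33 in spleen had an unadjusted p under 0.05. Over all genes it was called for 2 (0.0183%) in liver and 0% in marrow and spleen. The largest changes in liver at an unadjusted p under 0.05 were Syvn1 at -1.32 ± 0.50, Eif2ak3 at -0.88 ± 0.30 and Manf at -0.85 ± 0.36 (adjusted p = 0.419, 0.379 and 0.472).

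**Figure D5:**
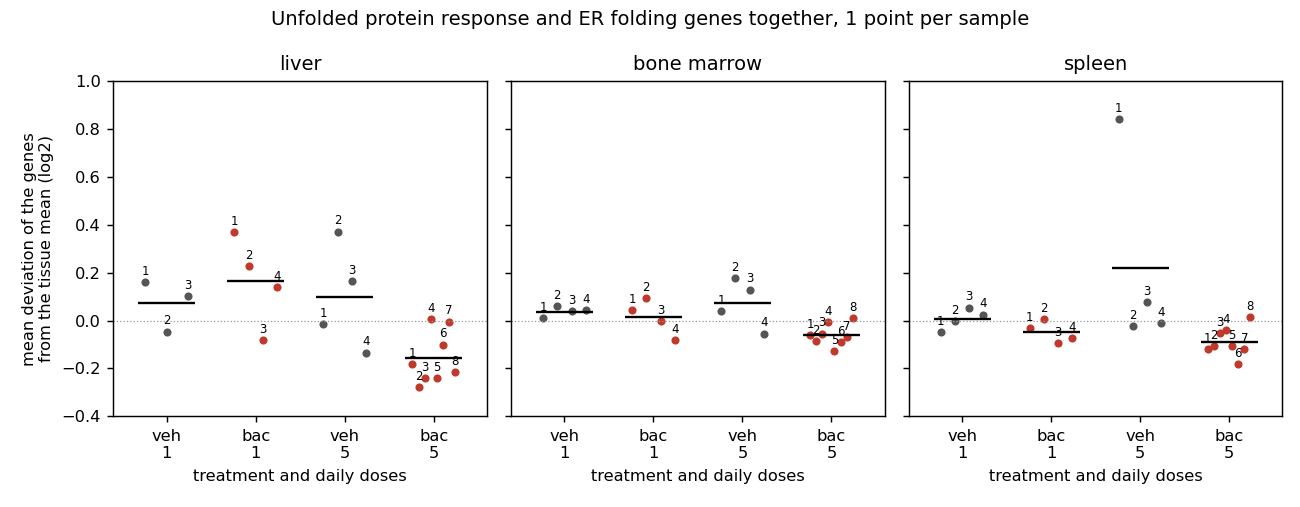
Mean log2 deviation of the tested genes from their tissue mean in each of the 59 arrays, by tissue and group, with numbers for the replicate and a line for the group mean. In liver at 5 days the 8 baclofen arrays lie between -0.28 and 0.01 and the 4 vehicle arrays between -0.13 and 0.37.

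The vehicle livers at 5 days differed among themselves. Replicate 2 had the highest value of its group in 25 of 35 genes and replicate 4 the lowest in 23. The count of genes called in liver at 5 days was 10 with all arrays, 4 without vehicle replicate 2, 4 without vehicle replicate 3, 6 without vehicle replicate 1 or baclofen replicate 2, and 18 without vehicle replicate 4. Without replicate 2 the calls lost were Calr, Hspa5, Manf, Pdia3, Pdia6 and Sel1l, and the median moved from -0.27 to -0.21. Of 11 macrophage markers, 3 also fell in liver at 5 days (median -0.44, list mean 8.33 to 8.88 with vehicle and 7.94 to 8.42 with baclofen) and 2 of 11 hepatocyte markers rose (list mean 14.3 to 14.4 and 14.5). Of the neutrophil markers 2 passed the filter in liver and 1 fell (differences -3.8 and -0.27, list mean of 9 genes 5.17 to 5.82 with vehicle and 4.84 to 5.59 with baclofen), and of the granulocyte precursor markers 1 of 2 fell, by 1.31 (list mean of 6 genes 4.72 to 5.09 and 4.61 to 4.73). The mean of the 7 plasma cell markers lay between 5.34 and 5.66 in all 19 livers. A measure of RNA quality, how far 3' control probe sets exceeded those at the 5' end (log2), was 0.501 ± 0.062 (SD, n = 4) with vehicle and 0.438 ± 0.038 (SD, n = 8) with baclofen. The part of these in the liver result was not tested apart from a fit with the 3' to 5' difference as a covariate, which called 4 genes while the median was -0.32, with 28 of 35 below 0 and 21 at an unadjusted p under 0.05 as without it.

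In marrow at 5 days, 5 of 7 red cell precursor markers rose (median 0.39, list mean 11.46 to 11.98 with vehicle and 11.91 to 12.28 with baclofen), 1 of 6 granulocyte precursor markers fell (median -0.40), 1 of 9 neutrophil markers fell (median -0.10, 9 of 9 below 0), 1 of 9 macrophage markers rose (median 0.20, 9 of 9 above 0), and 0 of 4 plasma cell markers tested passed (median 0.08, none at an unadjusted p under 0.05, limma). Their part in the marrow result was not tested. The count of 9 genes fell to 3 when vehicle replicate 1, 2 or 3 was left out. The marrow calls lost most often were Sdf2l1 (13 of 20 arrays left out and 6 of 10 other settings), Chac1 (12 and 5) and Creld2 (12 and 4). At 1 day the marrow count was 1, or Herpud1 alone; it was 5 without baclofen replicate 3, which added Ern1 (-0.52), Hspa13 (-0.31), Xbp1 (-0.28) and Ppp1r15a (0.39), and 0 in limma's test without vehicle replicate 1 or 3 or baclofen replicate 1, 2 or 4, with 3 to 6 genes at an unadjusted p under 0.05.

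The vehicle groups at 5 and 1 days did not differ in any of the genes at the threshold of limma's test, with 3 of 35 in liver, 1 of 34 in marrow and 2 of 33 in spleen at an unadjusted p under 0.05. In spleen, 31 of 33 genes were above 0 (median 0.22), the 5-day group being the one that holds replicate 1 described above.

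Whether the baclofen effect differed between tissues was tested over all 59 arrays, with each array taken as independent although tissues may share mice. Each gene was given here by its brightest probe set over all arrays. Liver and marrow differed for 4 of 34 genes at 5 days, where 7.8% of all genes did, 3.78% higher and 4.02% lower in liver: Chac1 (liver minus marrow 1.05 ± 0.23, adjusted p = 0.00212, limma), Ddit3 (-0.48 ± 0.11, adjusted p = 0.00306), Derl1 (-0.52 ± 0.12, adjusted p = 0.00309) and Syvn1 (-1.02 ± 0.31, adjusted p = 0.0292). At 1 day 2.27% of all genes differed, 1.54% higher and 0.736% lower, and none of these passed in limma's test, with 4 at an unadjusted p under 0.05. Liver and spleen differed for 1 of 33 genes at 1 day, Ern1 (-0.89 ± 0.20, adjusted p = 0.00383, limma). That is below the share of all genes called, 6.53%, with 3.63% higher and 2.89% lower. At 5 days liver and spleen differed for 4 of 33, where 11.7% of all genes were called, 6% higher and 5.68% lower: Ppp1r15a (1.38 ± 0.33, adjusted p = 0.00387, limma), Derl1 (-0.61 ± 0.12, adjusted p = 0.000449), Derl2 (0.41 ± 0.12, adjusted p = 0.0152) and Eif2ak3 (-0.57 ± 0.19, adjusted p = 0.0361). The Derl1 probe set used here was not the one given for liver above (mean log2 in liver 8.81 against 10.13). With the mean of each gene's probe sets, liver minus spleen was -0.13 for Derl1, 0.16 for Derl2 and -0.04 for Eif2ak3. None of these passed (adjusted p = 0.404, 0.269 and 0.829, limma), nor did Derl1 for liver minus marrow (-0.24, adjusted p = 0.136, limma). For Eif2ak3 that mean took in probe sets below the brightness filter in liver (3.55 and 4.35, limit 5.42) and spleen (4.17 and 5.015, limit 6.31). Derl2 was also lost without spleen vehicle 5-day replicate 1 (0.23, adjusted p = 0.0947), and Syvn1 without liver vehicle 5-day replicate 2 or 3 or marrow vehicle 5-day replicate 1 (adjusted p = 0.115, 0.0612 and 0.0651). Eif2ak3 was lost in 8 of 59 arrays left out, 2 of them baclofen livers, 2 vehicle livers, 3 vehicle spleens and 1 a baclofen spleen, all at 5 days. The Herpud1 difference was not called for liver against marrow or liver against spleen at either time; marrow was not compared with spleen.

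Further genes of the pathway, 105 with a probe set, came from lists of the integrated stress response, ER folding, degradation, sensors and the translocon. In liver 1 of 102 tested was higher and 0 lower at 1 day, where 2.67% of all genes were called. At 5 days 1 was higher and 8 lower (median -0.088, 79 of 102 below 0). Of all genes, 10.6% were called at 5 days, 4.86% higher and 5.75% lower. With both directions counted, the genes called were not above the background share at either time. By direction, the 8 lower of 102 at 5 days were near the share of all genes called lower, 5.75%, and are not read as a result about these lists. The 1 higher gene was below the share called higher. Cebpb, a transcription factor of the integrated stress response and of the liver's acute response, was the one that rose, by 1.49 ± 0.18 at 1 day (adjusted p = 0.000184) and 1.23 ± 0.15 at 5 days (adjusted p = 6.01e-05, limma). Those that fell at 5 days included Traf2, the adaptor that binds IRE1 (-0.40 ± 0.08, adjusted p = 0.00309), Atf5, an ATF4-related factor (-0.48 ± 0.10, adjusted p = 0.00523), Creb3l2, an ER-bound transcription factor (-0.75 ± 0.19, adjusted p = 0.0159) and Pdia5, a disulphide isomerase (-0.31 ± 0.08, adjusted p = 0.0195). The translocon list had 22 of 26 below 0 in liver at 5 days with none passing (10 at an unadjusted p under 0.05, limma).

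Marrow had 2 of these further genes higher and 2 lower of 100 at 1 day, and 2 higher and 3 lower at 5 days (median -0.065), against 7.36% and 10.1% of all genes called. Cebpb rose there at 1 day (0.63 ± 0.16, adjusted p = 0.0198) and Cebpg, its dimer partner, fell (-0.53 ± 0.11, adjusted p = 0.0089, limma). At 5 days Eif2ak1, the heme-regulated eIF2 alpha kinase of red cell precursors, rose (0.34 ± 0.08, adjusted p = 0.0153) and Ero1a, which supplies oxidising power for disulphide bonds, fell (-0.48 ± 0.13, adjusted p = 0.0283). Spleen had 3 higher and 5 lower of 100 at 1 day and 1 higher and 2 lower at 5 days (median -0.16), against 15.5% and 4.43% of all genes called, among them Mthfd2, a mitochondrial folate enzyme, at -0.52 ± 0.14 and -0.48 ± 0.12 (adjusted p = 0.016 and 0.0275, limma). The spleen median at 5 days was not refitted for this list without vehicle replicate 1, which moved that of the 33 genes above from -0.28 to -0.08.

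Grouped by the motifs shown above, the 9 genes with the ER stress element were all below 0 in liver at 5 days (median -0.33), and 3 of them, Hspa5, Calr and Pdia6, passed. The 15 genes with none of the motifs searched had 13 below 0 and a median of -0.35, a median like that of the genes with the element. Genes that held only another motif are in neither group. The 4 genes with the CARE motif were above 0 in liver at both times, with medians of 0.74 at 1 day and 0.36 at 5 days, and Herpud1 was the one that passed. The others, Asns, Chac1 and Trib3, are also ATF4 and CHOP targets described above. In marrow the 3 tested had medians of 0.18 and 0.043 at 1 and 5 days, with 1 below 0 at each time and Chac1 called lower at 5 days. In spleen the 2 tested had medians of -0.0016 and -0.10, with 1 below 0 at each time.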

How the data were processed

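RNA of liver, marrow and spleen was hybridised to Affymetrix arrays after biotin labelling, per the labels' protocols. The values are linear intensities per probe set, normalized by the authors with RMA, per the submitters' processing notes, which also name limma; versions are not given in the sources used here. The deposited intensity medians differ between tissues, so tissues appear to have been normalized apart. Samples were grouped by title.

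Values were log2-transformed. Of 45101 probe sets, 34945 had 1 symbol, 932 had several and 9160 had none; 64 were controls. Per gene and tissue the brightest probe set was kept, and genes under the 40th percentile of mean brightness were left out (lowest mean intensity tested 42.9, 83.6 and 79.5 in liver, marrow and spleen). For tissue differences the probe set brightest over all arrays was kept, and genes had to pass the filter in both tissues. limma 3.58.1 in R 4.3.3 fitted the 4 groups of a tissue together, or all 12 groups for tissue differences; p-values were adjusted by Benjamini-Hochberg over all genes tested. The procedure was tested on simulated data. The alternatives tried were no filter, the mean of probe sets, probe sets apart, quantile normalization, median centring, array weights, the 3' to 5' difference as a covariate, a replicate block, 2-group fits, the source field as label, and leaving out 4 libraries or each array.

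The genes and lists were chosen with earlier results of these data known. All 35 genes are named; sample values are given for those past the threshold and the best known others, and of each further list up to 4 genes with the smallest adjusted p.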

Additional observations from a re-analysis of the deposited data

Results flagged for a closer look

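For each gene called in a tissue, its values there were checked by Dixon's criterion in every group of 4 to 10 samples. Of these 82 sets of values, 7 held a sample far from the rest. Chance gives about 1 in 20 for independent sets, but these share arrays and are not independent. Vehicle 5-day spleen replicate 1 was the distant sample for Manf (12.2) and Sdf2l1 (10.21), in the library whose plasma cell markers were also highest. In baclofen livers at 5 days, replicate 7 was distant for Pdia3 (12.67) and Pdia6 (11.34), where it lay within the vehicle range, and replicate 6 was distant for Herpud1 (13.63). Herpud1 was lowest in marrow baclofen 1-day replicate 3 (10.36), the marrow with muscle transcripts. Xbp1 was lowest in marrow vehicle 5-day replicate 4 (11.91), which was still above every baclofen marrow.

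The baclofen effect differed between tissues by a test of the difference in 9 cases. Of all genes tested, 7.8% differed for liver against marrow at 5 days, 6.53% for liver against spleen at 1 day and 11.7% at 5 days. The 4 of 33 genes of the last comparison were thus near the background share, and the 1 of 33 at 1 day was below it. Liver minus marrow at 5 days was 1.05 for Chac1, -0.48 for Ddit3, -0.52 for Derl1 and -1.02 for Syvn1. Liver minus spleen was -0.89 for Ern1 at 1 day, and at 5 days it was 1.38 for Ppp1r15a, -0.61 for Derl1, 0.41 for Derl2 and -0.57 for Eif2ak3.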

How the results depend on the processing

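Counts below are of the 35 genes called by limma; after a count of 0 the number at an unadjusted p under 0.05 is given. In liver, 2 genes at 1 day became 0 with the source field as label (1 at p under 0.05); 10 at 5 days became 5 with array weights and 4 with the 3' to 5' covariate. In marrow, 1 gene at 1 day became 2 with probe sets apart, 5 with array weights, 5 without the 4 libraries and 0 (5) in the 2-group fit; 9 at 5 days became 26 with array weights. In spleen, 1 gene at 1 day became 2 with probe sets apart, 2 with quantile normalization and 3 with array weights; 2 at 5 days became 1 with the mean of probe sets, 5 with probe sets apart, 4 with array weights, and 0 without the filter (19), with the covariate (16), in the 2-group fit (13) and without the 4 libraries (7). Tissue differences moved from 0 to 1 (liver and marrow, 1 day) with the mean of probe sets and with probe sets apart, and from 4 to 2 and 7 (liver and spleen, 5 days) under the same settings. The counts over all genes or probe sets tested moved too. Over all settings they ran from 0 to 556 and 231 to 1914 in liver at 1 and 5 days (main fit 291 and 1159). In marrow they ran from 262 to 2416 and 2 to 4404 (803 and 1100), and in spleen from 677 to 3651 and 2 to 957 (1697 and 484). The causes were not tested.

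Vehicle and baclofen samples of the same number within a tissue showed no steady pairing. Over 23 such pairs the correlation of deviations was -0.458 to 0.271, with 5 over 0.1 and 4 highest for their own number. This check stayed within a tissue, so it cannot show whether tissues share mice. With the replicate number as a block, the counts in liver were 1 and 1, in marrow at 5 days 0 (10), and in spleen 0 at both times (1 and 11).

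With single arrays left out, the count ran from 2 to 3 and 4 to 18 in liver at 1 and 5 days, 0 to 5 and 3 to 13 in marrow, 1 to 3 and 0 to 6 in spleen, 0 to 0 and 3 to 6 for liver against marrow, 1 to 2 and 3 to 5 for liver against spleen, and 0 to 0 for the change from 1 to 5 days in each tissue. In spleen at 5 days 6 genes were called without vehicle replicate 4. Over all genes tested, the counts with single arrays left out ran from 137 to 353 and 584 to 1544 in liver at 1 and 5 days. They ran from 303 to 1405 and 244 to 1674 in marrow, and from 949 to 3049 and 135 to 757 in spleen. Leaving out arrays of all tissues for the tissue differences was chosen after seeing the data.

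With the source field as label, Ern1 was 0.27 and Herpud1 -0.071 in liver at 1 day (adjusted p = 1 for each), and liver minus spleen was 0.25 for Ern1 and 0.38 for Ddit3. With probe sets apart, a dimmer Ssr1 probe set gave 0.24 and 0.34 in spleen at 1 and 5 days and -0.40 for liver minus spleen at 5 days. Calls against vehicle kept in every array left out were Herpud1 in liver and spleen at 1 day, Ern1 in liver at both times, Ppp1r15a in liver at 5 days, and Hspa13 and Xbp1 in marrow at 5 days; so were the tissue differences of Chac1, Ddit3 and Derl1 (liver minus marrow, 5 days), Ern1 (liver minus spleen, 1 day) and Derl1 and Ppp1r15a (liver minus spleen, 5 days). Ppp1r15a in liver also passed in all 9 other settings. Both Derl1 tissue differences were lost with the mean of probe sets.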
